A study of Homo sapiens with 2 samples.

Results

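The genes examined were the 10 MHC class II genes and partners CIITA, CD74, HLA-DRA, HLA-DRB1, HLA-DPA1, HLA-DPB1, HLA-DQA1, HLA-DQB1, HLA-DMA and HLA-DMB, out of 44591 genes in the count table. They were taken by gene symbol from a group chosen by its log2 fold changes between these same libraries, so levels and changes are given as a description. All 10 had a row. RNA was sequenced from HSC-1 cells, an established cutaneous squamous cell carcinoma (cSCC) line, that had received either a control siRNA (siNC) or siRNA against the long noncoding RNA LINP1 (siLINP1). Both cultures received siRNA with a transfection reagent at about 70% confluency, spent 6 h without serum and were kept for another 24 h in medium with serum, according to the sample labels, while the study's methods give another density and time. Each condition had 1 library from 1 line, so no difference has a replicate check, no p-value was computed, and every interval covers counting error only.

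MHC class II molecules are pairs of an alpha and a beta chain that hold peptides from the endosomal route and show them to CD4+ T cells. They are made constitutively by professional antigen-presenting cells, while epithelial and other cells switch them on mostly in response to interferon gamma. CIITA is the coactivator that turns on the whole family, by docking on factors that already sit on the X and Y boxes of class II promoters. CD74, the invariant chain, fills the groove of a new class II pair and guides it to the endosome, and HLA-DM then exchanges the remaining fragment of CD74 for a peptide.

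Gene counts summed to 18829544 reads in siNC and to 15383081 in siLINP1. LINP1 had 167 siNC reads and 23 siLINP1 reads (log2 fold change -2.65, 95% interval -3.35 to -2.02), in the direction that the labels give. Of 18 keratinocyte markers, 11 lay below 1 RPKM (reads per kilobase of gene, scaled to library size) in both libraries, among them KRT5, TP63 and CDH1, and IVL and LORICRIN had 1 read in siNC and 0 in siLINP1. The list was led by KRT10, with 1222 and 860 reads. The mesenchymal gene VIM had 61097 siNC reads and 41992 siLINP1 reads. Most of the 18 keratinocyte markers thus lay below 1 RPKM. Above it in both libraries, beside KRT10, were SFN (10.7 RPKM in siNC and 6.82 in siLINP1), KRT14 (7.89 and 3.46) and JUP (4.56 and 2.85). KRT15 (3.09 and 4.59) and KRT17 (1.99 and 2.23) were above it as well, and KRT6A (0.672 and 1.19) in siLINP1 only. Of 10 mesenchymal markers, 2 lay below 1 RPKM in both libraries, THY1 and COL1A2.

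CIITA works through the X and Y boxes of class II promoters, and stretches with letters like theirs are printed here where they were found. Windows of 250 bases before to 50 bases after the gene start were taken from RefSeq (GRCh38.p14), which matched 8 of the 10 members, all but CIITA and HLA-DRA. The letters CNAGNN followed directly by ACNGA stood for the X box and ATTGG, the core of the NF-Y site, for the Y box, on either strand, and both were chosen after these promoters had been read. X letters were found in 6 of the 8 members and in 3.35% of 35116 windows, and Y letters in 7 of the 8 and in 34.6%. X letters followed by Y letters on the same strand, 10 to 40 bases apart, were found in 4 members and in 24 windows in all, which is 0.0683%. HLA-DRB5 and HLA-DOA, class II genes outside the 10, were among these 24 as well. Each stretch runs 5′ to 3′ on the strand of its gene, with matched letters in capitals. The first 6 stretches hold both elements. HLA-DMB and HLA-DPA1 are shown around their X letters, with Y letters elsewhere in the HLA-DMB window. HLA-DPA1 had 2 windows, with X letters in 1 of them and Y letters in neither. A member was counted if any of its windows matched, while the percentages are shares of windows. HLA-DPB1 and CD74 hold Y letters without X letters, in CD74 on the opposite strand (CCAAT).
HLA-DRB1 (chr6:32589887-32589932, minus strand): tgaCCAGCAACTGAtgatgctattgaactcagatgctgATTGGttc
HLA-DQA1 (chr6:32637299-32637345, plus strand): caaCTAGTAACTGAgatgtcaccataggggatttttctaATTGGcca
HLA-DQB1 (chr6:32666738-32666783, minus strand): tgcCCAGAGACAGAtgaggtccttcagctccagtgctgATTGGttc
HLA-DMA (chr6:32953169-32953215, minus strand): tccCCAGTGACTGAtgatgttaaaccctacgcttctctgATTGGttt
HLA-DRB5 (chr6:32530370-32530415, minus strand): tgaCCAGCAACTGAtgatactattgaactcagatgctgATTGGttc
HLA-DOA (chr6:33009651-33009697, minus strand): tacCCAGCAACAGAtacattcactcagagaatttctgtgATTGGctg
HLA-DMB (chr6:32941076-32941121, minus strand): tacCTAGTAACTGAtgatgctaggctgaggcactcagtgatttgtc
HLA-DPA1 (chr6:33073708-33073753, minus strand): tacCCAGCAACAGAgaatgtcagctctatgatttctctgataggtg
HLA-DPB1 (chr6:33075853-33075898, plus strand): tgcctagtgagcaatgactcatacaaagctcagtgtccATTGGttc
CD74 (chr5:150412956-150413001, minus strand): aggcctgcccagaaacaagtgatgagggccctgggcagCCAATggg
In the genes with both elements, 24 or 25 bases separated the X letters from the Y letters. A match describes letters in the reference and not a site in use, and alleles of HSC-1 cells were not examined.

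Class II genes were read at substantial levels in both libraries. On the RPKM scale, which allows levels of different genes to be compared, CD74 was highest with 754 in siNC and 673 in siLINP1, rank 81 and rank 78 among the 19233 protein-coding genes. HLA-DRA followed with 128 and 97.4 RPKM, HLA-DPA1 with 63.3 and 41.3, HLA-DMA with 27.0 and 19.9, and HLA-DRB1 with 22.2 and 17.7. CIITA reached 14.8 and 10.1 RPKM, HLA-DMB 8.74 and 5.91, HLA-DPB1 8.59 and 6.70, HLA-DQB1 3.32 and 2.34, and HLA-DQA1 0.964 and 0.717. The order was the same in both libraries except for HLA-DMB and HLA-DPB1, whose 95% Poisson intervals overlapped in each library. HLA-DMA and HLA-DRB1 overlapped in siLINP1 only. CD74 took 73.5% of the reads of the 10 genes in siNC and 77.4% in siLINP1.

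The alpha and beta chains of a pair were not read at equal levels. HLA-DRA had 5.79 times the RPKM of HLA-DRB1 in siNC and 5.49 times in siLINP1, and with HLA-DRB5 added to the beta side the ratios were 3.37 and 3.30. HLA-DPA1 had 7.37 and 6.16 times the RPKM of HLA-DPB1, and HLA-DQB1 had 3.44 and 3.27 times that of HLA-DQA1. HLA-DMA exceeded HLA-DMB 3.09-fold and 3.36-fold. Beta chain genes and the DQ genes vary between alleles and have close paralogs, so reads that differ from the reference or match more than 1 gene can be lost, and RPKM values of HLA-DPB1 divide by a gene length of 4055 bases against 1780 for HLA-DPA1.

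The comparison of siLINP1 with siNC asks which genes moved when LINP1 was depleted, and the class II genes are described here. All 10 members were lower in siLINP1, with log2 fold changes from -0.25 for CD74 to -0.70 for HLA-DPA1 and a median of -0.52, against a median of -0.02 over the 19840 genes with at least 10 reads. Log2 fold changes compare counts scaled by median-of-ratios size factors, and 52.2% of all genes were below 0. At a threshold of 1.5-fold, 3 of the 10 were lower (HLA-DPA1, HLA-DMB and CIITA) and 0 higher, where 13.0% of all genes were lower and 14.4% higher by this measure. The whole 95% interval lay below no change for 9 of the 10, all but HLA-DQA1, and above it for 0, against 25.6% of all genes below and 23.0% above. Among genes with at least 100 reads, which 9 of the members reached, 33.4% lay below. The members were chosen with these values known, and the counts test nothing. Scaling by the total count left all 10 below 0 and only HLA-DPA1 past 1.5-fold, at -0.62. Subtracting a trend with GC content and gene length, an alternative added after the data were seen, left CIITA (-0.63) and HLA-DPA1 (-0.72) past it, with HLA-DMB at -0.58.

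**Figure D1:**
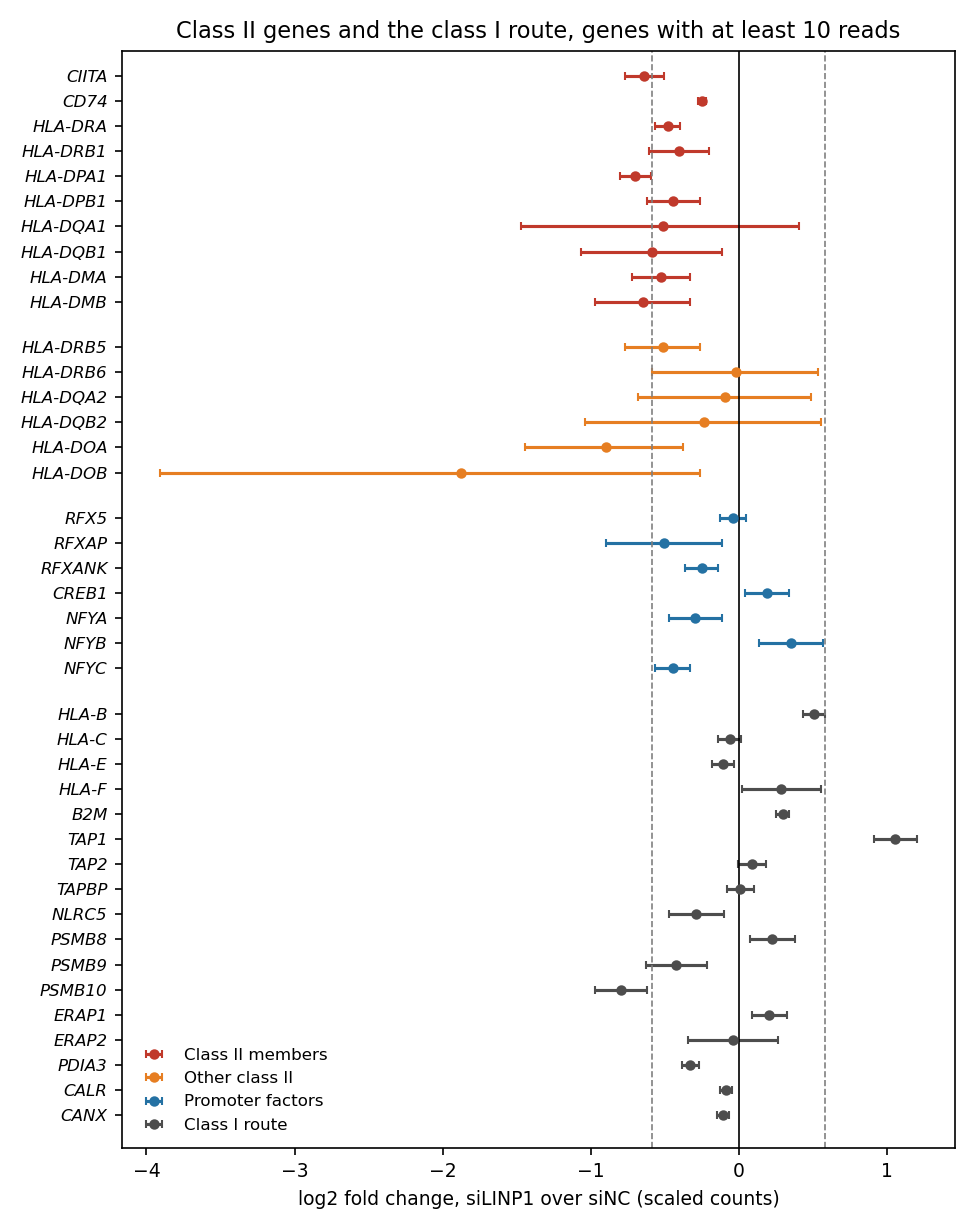
Log2 fold change of siLINP1 over siNC (x axis, scaled counts) for genes with at least 10 reads, with 95% intervals from counting error, 1 library per condition, and dashed lines at 1.5-fold. The 10 members (red) lie between -0.70 and -0.25, the other class II genes (orange) are below 0 with wide intervals (HLA-DRB6, at -0.02, is above 0 with total count scaling), and the promoter factors (blue) and class I genes (grey) lie on both sides of 0, with TAP1 at 1.06.

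CIITA (GRCh37 chr16:10971055-11018840, plus strand) had 1313 siNC reads and 730 siLINP1 reads. Its log2 fold change was -0.64 (95% interval -0.77 to -0.51), and 11.3% of all genes lay lower. The 7 genes whose products hold CIITA at the promoter lay on both sides of no change. RFX5, the subunit of the RFX complex that binds the X box, had 2391 and 2013 reads (-0.04, 95% interval -0.13 to 0.05). Its partner RFXANK had 1557 and 1133 reads (-0.25), and RFXAP had 149 and 91 (-0.50, 95% interval -0.89 to -0.12). Of the NF-Y subunits, which bind the Y box, NFYC had 1451 and 921 reads (-0.45) and NFYA had 622 and 439 (-0.29), while NFYB had 335 and 370 (0.35). CREB1, which binds beside RFX, had 754 and 745 reads (0.19). In all, 4 of the 7 had their interval below 0 and 2 above it, and 0 passed 1.5-fold. Among all genes with at least 10 reads, 25.6% had it below and 23.0% above, and with at least 100 reads 33.4% had it below. Past 1.5-fold, 13.0% of genes with at least 10 reads were lower and 14.4% higher. With the GC and length trend removed, CREB1 lay at -0.03, RFXANK at -0.02 and NFYB at 0.22. RFXAP then lay at -0.57, NFYA at -0.40, NFYC at -0.45 and RFX5 at -0.08.

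CD74 (chr5:149781200-149792499, minus strand) had 23864 siNC reads and 17400 siLINP1 reads. The log2 fold change of -0.25 (95% interval -0.27 to -0.22) was the smallest of the 10, and 31.5% of all genes lay lower. Most genes of this abundance were lower in siLINP1: of the 195 genes with a mean scaled count of at least 10000, 163 were below 0, with a median of -0.32. When the GC and length trend was removed, CD74 moved to -0.089. The ratio of each other member to CD74 within a library does not depend on scaling. As CD74 fell least of the 10, every other member falls relative to it by construction. HLA-DPA1 fell by 0.45 on the log2 scale relative to CD74 (95% interval -0.56 to -0.34), CIITA fell by 0.39 (95% interval -0.52 to -0.26) and HLA-DRA fell by 0.23 (95% interval -0.32 to -0.15). For HLA-DRB1, HLA-DQA1 and HLA-DQB1 the interval of this ratio included 0.

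All other members lie in the MHC on chromosome 6. HLA-DRA (chr6:32407619-32412823, plus strand), the nearly invariant alpha chain of DR, had 3093 siNC reads and 1917 siLINP1 reads (log2 fold change -0.48, 95% interval -0.56 to -0.40). HLA-DRB1 (chr6:32546546-32557613, minus strand), the main beta chain, had 508 and 332 reads (-0.40, 95% interval -0.61 to -0.20). The paralog HLA-DRB5 had 350 and 212 reads (-0.51, 95% interval -0.77 to -0.26, and -0.30 with the trend removed), and the pseudogene HLA-DRB6 had 61 and 52 (-0.02, 95% interval -0.58 to 0.54, above 0 with total count scaling). The DR beta genes resemble each other closely, so the split of reads among them is uncertain.

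HLA-DPA1 (chr6:33032346-33048555, minus strand), the alpha chain of DP, had 2123 siNC reads and 1131 siLINP1 reads. Its log2 fold change of -0.70 (95% interval -0.80 to -0.59) was the largest of the 10. HLA-DPB1 (chr6:33043703-33057473, plus strand), the beta chain, had 656 and 418 reads (-0.44, 95% interval -0.62 to -0.26). The spans of these genes overlap by 4853 bases on opposite strands. Exons within the overlap were not compared, and the strand setting of the counting is not given in the sources used here. How reads in the overlap were divided between the genes is therefore not known. The pseudogene HLA-DPB2 had 2 siNC reads and 0 siLINP1 reads.

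Among the member pairs, DQ was read least. HLA-DQA1 (chr6:32605183-32611429, plus strand) had 28 siNC reads and 17 siLINP1 reads, and the interval of its log2 fold change of -0.51 reached from -1.47 to 0.41. No difference was detectable at this depth. HLA-DQB1 (chr6:32627241-32634466, minus strand) had 104 and 60 reads. At -0.58 (95% interval -1.07 to -0.11) it lay just inside the 1.5-fold line, with 1.499-fold more in siNC. The antisense RNA HLA-DQB1-AS1 on its other strand had 0 and 1 reads. The paralogs HLA-DQA2, with 58 and 47 reads (-0.09, 95% interval -0.68 to 0.49), and HLA-DQB2, with 34 and 25 (-0.23, 95% interval -1.04 to 0.55), had intervals across 0. Each DQ gene and paralog stayed at or below 3.32 RPKM.

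HLA-DMA and HLA-DMB form the editor that loads peptides in the endosome. HLA-DMA (chr6:32916391-32920899, minus strand) had 570 siNC reads and 343 siLINP1 reads (-0.52, 95% interval -0.72 to -0.33), and HLA-DMB (chr6:32902406-32908847, minus strand) had 230 and 127 (-0.65, 95% interval -0.97 to -0.33). HLA-DOA, a chain of the DM inhibitor HLA-DO, had 97 and 45 reads (-0.90, 95% interval -1.44 to -0.37). HLA-DOB, its partner, had 17 and 4 reads (-1.88, 95% interval -3.91 to -0.26). Both chains of DM and both chains of DO were thus lower in siLINP1, at levels at or below 1.48 RPKM for DO.

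Along chromosome 6, coding class II genes lay below 0 and the coding genes among them lay on both sides. Between the start of HLA-DRA and the end of HLA-DPB1, a span of 650 kb, 18 protein-coding genes had at least 10 reads. All 13 class II genes there were below 0, 10 of them with the whole interval, although HLA-DQA2 came to 0.01 with the GC and length trend removed. Of all genes with at least 10 reads, 52.2% were below 0, and 25.6% with the whole interval. The members among the 13 were chosen with these values known, so the contrast with their neighbours tests nothing. Among the 5 others, TAP1, which carries peptides for class I, had 596 siNC reads and 1072 siLINP1 reads (1.06, 95% interval 0.91 to 1.20). PSMB8, an immunoproteasome subunit, had 725 and 734 reads (0.23), the chromatin reader BRD2 had 4381 and 4178 (0.14) and TAP2 had 1859 and 1710 (0.09, 95% interval -0.01 to 0.18, and -0.01 with the trend removed). PSMB9, the neighbour of TAP1, had 506 and 327 reads (-0.42, 95% interval -0.63 to -0.22), the 1 of the 5 that lay below 0.

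Genes of class I, which presents cytosolic peptides in nucleated cells, lay on both sides of no change. HLA-B had 2605 siNC reads and 3204 siLINP1 reads (0.51, 95% interval 0.43 to 0.58), HLA-C had 2772 and 2297 (-0.06, and 0.20 with the trend removed), and the light chain B2M had 7996 and 8496 (0.30). The 6 DR, DP and DQ chains had together 6512 reads against 7996 of B2M in siNC, and 3875 against 8496 in siLINP1. This ratio fell by 0.84 on the log2 scale (95% interval -0.91 to -0.76), whatever the scaling, and that of CD74 to B2M fell by 0.54 (95% interval -0.60 to -0.49). B2M was picked for these ratios with its values known. Of the 17 listed genes of the class I route with at least 10 reads, 6 had their interval above 0 and 7 below. Shares over all genes with at least 10 reads were 23.0% above and 25.6% below, and with at least 100 reads 33.4% below. PSMB10 lay at -0.80 (-0.45, inside 1.5-fold, with the trend removed), PDIA3 at -0.33 (-0.37) and CALR at -0.09 (0.01). Relative to GAPDH, which itself had 124059 and 73563 reads (-0.54), the reads of the 10 members rose by 0.22 (95% interval 0.19 to 0.25), and without CD74 they changed by -0.01 (95% interval -0.06 to 0.04). Relative to ACTB (0.01) the 10 members fell by 0.33 (95% interval -0.36 to -0.30).

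CIITA in cells that are not professional antigen-presenting cells is switched on through the interferon gamma receptor, JAK kinases and IRF1. IFNG itself had 0 reads in both libraries, which allows up to 3 reads in each. IRF1 had 1101 siNC reads and 1825 siLINP1 reads (0.94, 95% interval 0.83 to 1.05), and JAK2 had 249 and 332 (0.62, 95% interval 0.38 to 0.87). Both were higher by more than 1.5-fold while CIITA was lower, although JAK2 came to 0.46, inside that line, with the trend removed. PRDM1, a repressor of CIITA in plasma cells, had 406 and 514 reads (0.55, 95% interval 0.36 to 0.74), and IFNGR2 had 705 and 765 (0.33). The other receptor chain, IFNGR1, had 316 and 230 reads (-0.25, 95% interval -0.50 to 0.0008). The coactivator CREBBP, the most read of the list, had 1978 and 1856 reads (0.12). Of the 12 listed genes with at least 10 reads, 8 had their interval above 0 and 0 below, with a median of 0.20. Of all genes with at least 10 reads, 23.0% had it above and 25.6% below.

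Listed genes of CD74 cutting, class II loading and the compartments where these take place were mostly a little lower. Of 16 listed genes, 11 had their interval below 0 and 0 above, and the median was -0.21. Of all genes with at least 10 reads, 25.6% had it below and 23.0% above, and with at least 100 reads 33.4% had it below. LAMP1, a lysosomal membrane protein, had 3938 siNC reads and 2406 siLINP1 reads (-0.50, 95% interval -0.58 to -0.43), the protease CTSD had 3689 and 2493 (-0.36), CTSF had 538 and 351 (-0.41) and the thiol reductase IFI30 had 987 and 671 (-0.35). CD63, the most read of them, had 8451 and 6903 (-0.08). With the GC and length trend removed, LAMP1 stayed at -0.49, CTSF lay at -0.26, CTSD at -0.14, IFI30 at -0.10 and CD63 at 0.01. CTSV, with 27 and 11 reads (-1.09, 95% interval -2.25 to -0.03), was the 1 gene of the list past 1.5-fold.

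CD74 at the cell surface is also the receptor of the cytokine MIF, with CD44 as its signalling partner. MIF had 9699 siNC reads and 5146 siLINP1 reads (-0.70, 95% interval -0.75 to -0.66), and its homologue DDT had 725 and 447 (-0.49). The MIF value moved to -0.16 and that of DDT to -0.22 when the same trend was removed. CD44 had 16258 and 11642 reads (-0.27, 95% interval -0.31 to -0.24, and -0.39 with the trend removed). The chemokine receptors that can join this complex were scarcely read, CXCR4 with 4 reads in each library, CXCR2 with 3 and 0, and ACKR3 with 0 and 2.

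Blood cells that carry class II constitutively left little trace. Of 19 markers, 17 lay below 1 RPKM in both libraries, and MS4A1, CD3E, CD1A and CD207 had 0 reads in both, which allows up to 3 reads in each. PTPRC had 1 read in siNC and 4 in siLINP1. The exceptions were CD68, a lysosomal protein also made outside blood cells, with 48.7 and 45.8 RPKM (-0.17, and -0.04 with the trend removed), and ITGAM, with 12 siNC reads and 148 siLINP1 reads (3.83, 95% interval 2.99 to 4.82). Of the 7 markers with at least 10 reads, 5 were lower in siLINP1, where 52.2% of all genes with at least 10 reads were below 0. Among the 5 were the myeloid genes LYZ with 28 and 11 reads and CSF1R with 31 and 11, at up to 0.981 RPKM. The 19 markers summed to 52.6 RPKM in siNC and 50.8 in siLINP1, and their part in the class II values was not tested. Endothelial markers stayed at or below 0.132 RPKM, with 12 reads of VWF in each library. In bulk RNA, fewer cells with class II and less class II RNA per cell cannot be told apart.

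Some markers of the line itself also differed between the libraries. Among keratinocyte genes, KRT14 had 243 siNC reads and 87 siLINP1 reads (-1.27, 95% interval -1.64 to -0.91), JUP had 301 and 154 (-0.76), SFN had 264 and 138 (-0.73, and -0.42, inside 1.5-fold, with the trend removed) and CDH1 had 14 and 3 (-2.01, 95% interval -4.45 to -0.17). In the other direction, KRT15 had 107 and 130 reads (0.49, 95% interval 0.11 to 0.87) and KRT6A had 31 and 45 (0.75, 95% interval 0.06 to 1.46). Of the 16 keratinocyte markers with at least 10 reads, 5 had their interval below 0 and 2 above. Over all genes with at least 10 reads the shares were 25.6% below and 23.0% above. Among mesenchymal genes, PDGFRB had 369 and 172 reads (-0.89) and COL1A1 had 190 and 79 (-1.06), while ZEB2 had 416 and 810 (1.17). CDH2 had 1862 and 1092 reads (-0.56, and -0.66, past 1.5-fold, with the trend removed). The summed reads of the 18 keratinocyte markers gave -0.37 and those of the 10 mesenchymal markers -0.31, beside -0.32 for the 10 class II members and -0.56 for the members without CD74. Single genes carry these sums, as the mesenchymal markers gave -0.11 without VIM and the keratinocyte markers -0.45 without KRT10. The part of these differences in the class II values was not tested.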

How the data were processed

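Total RNA of 2 cultures of HSC-1 cells was sequenced, 1 library per condition. Per the labels and the paper's methods, the authors used TopHat2 for alignment (GRCh37/hg19) and HTSeq for counting (the submitters' processing notes also name Bowtie2, HISAT and HISAT2). The versions, annotation and counting mode are not given in the sources used here. The deposited count values are raw reads per gene. The deposited RPKM values equal the count divided by gene length and by the library total, to within 5.82e-11. The table's 12 other columns of per-sample values were not used. Groups were taken from the treatment labels.

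Size factors from the median of ratios (1.08 for siNC, 0.930 for siLINP1) put both libraries on one scale, and 19840 genes with at least 10 reads in both libraries together were kept. The log2 fold change carries no pseudocount, and a 95% Clopper-Pearson interval was taken on how a gene's reads divide between the libraries. Intervals of ratios within libraries used the normal approximation on the log scale. Intervals and the floor of 3 reads for a count of 0 cover counting error only. The members and the 11 gene lists were chosen with earlier results of these data known. A few listed genes are not reported here and were left out of the list counts. Named genes were the members, other class II genes with reads, promoter factors, coding neighbours in the class II region, and in each other list the most read gene and up to 4 genes whose interval excluded no change. Outside this rule, HLA-C, B2M, IFNGR1, CTSV, KRT5, KRT15, KRT17, KRT6A, GAPDH, ACTB and genes with at most 8 reads in each library were named after their values were seen. With 2 libraries no genes were ranked by likeness of pattern. Alternatives were total count scaling, edgeR TMM factors, minimums of 1 and 100 reads, coding genes only, pseudocounts of 1 and 5, leaving out members and, added after the data were seen, subtraction of a GC and length trend (lowess, fraction 0.3, 11974 genes, GC of the longest GENCODE transcript). The interval was checked on simulated Poisson counts, which hold counting error and no variation between cultures. TMM factors came from edgeR 4.0.16 in R 4.3.3, figures from matplotlib 3.10.9, the trend from statsmodels 0.14.6, intervals from scipy 1.17.1, and tables from pandas 2.3.3 and numpy 2.4.6 in Python 3.11.15.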

Additional observations from a re-analysis of the deposited data

How the results depend on the processing

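All 49 alternative values of single members stayed below 0, and 70 of 84 alternative values stayed within the interval of the reported value or, for counts, within 1.5 times. Some of this was fixed in advance, as a pseudocount cannot change the sign of a value and a minimum of 1 read removed no member. For the members' median, the medians of the members' interval limits stood in for an interval. Scaling by the total count moved CD74 to -0.16, the summed reads of the members to -0.24 and the members lower by 1.5-fold to 1. Without CD74 the summed reads gave -0.56. Removing the trend with GC content and length moved CD74 to -0.089 and HLA-DRA to -0.39. Genes higher and lower by 1.5-fold numbered 7048 and 6456 with at least 1 read, 1163 and 903 with at least 100 reads, 1558 and 1492 for coding genes only, and 948 and 637 with the trend removed, where fewer or more genes were counted by construction. HLA-DQA1 had too few reads for the trend. Depth limits HLA-DOB, HLA-DQA1, HLA-DQB2, HLA-DQA2 and HLA-DRB6, each with at most 113 reads over both libraries. No paired analysis was possible because each condition has 1 library.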

Other observations

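Costimulatory and checkpoint ligands, which T cells read together with class II, moved in both directions. CD274 (PD-L1) had 210 reads in siNC and 423 in siLINP1, a log2 fold change of 1.22 (95% interval 0.98 to 1.47), while its relative PDCD1LG2 (PD-L2) had 116 and 50 reads (-1.0, 95% interval -1.51 to -0.51). ICAM1, an adhesion ligand of T cells, had 2650 and 3176 reads (0.47, 95% interval 0.40 to 0.55), and CD70, the most read of the list, had 3561 and 2567 (-0.26, and -0.12 with the GC and length trend removed). TNFSF4 had 2 and 11 reads (2.67, 95% interval 0.47 to 5.88). CD80 and CD86, the classical signals of antigen-presenting cells, had at most 2 reads in a library. Of the 10 listed genes with at least 10 reads, 3 had their interval above 0 and 3 below. These counts are near the shares over all genes with at least 10 reads, 23.0% above and 25.6% below.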
